A study of Mus musculus with 30 samples.

Results

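The genes described here are the collagens, laminins, fibrillins, fibulins, lysyl oxidases and TIMPs and the matrix proteases of the MMP and ADAMTS families with their ADAMTS-like relatives. They were chosen by symbol: every gene with a probe set of its own whose symbol begins with Col and a digit, or with Lama, Lamb, Lamc, Fbn, Fbln, Adamts, Mmp, Timp or Lox. This gave 86 of the 12394 genes on the array. They comprise 36 collagens, 10 laminin chains, 5 fibrillins and fibulins, 4 lysyl oxidases, 18 MMPs, 9 ADAMTS and ADAMTS-like genes and 4 TIMPs. Adamtsl4 and Adamtsl5, the ADAMTS-like members, encode proteins without the protease domain.

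RNA came from primary cultures of mouse telencephalon taken at embryonic day 12.5 (E12.5) and grown as dissociated, low-density cells in serum-free medium. The knockout (KO) cultures came from 1 pool of 6 Xbp1 -/- embryos and the wild-type (WT) cultures from 1 pool of 4 Xbp1 +/+ embryos, litters of the same 2 Xbp1 +/- crosses, and both pools had been dissociated with collagenase and trypsin. Each pool was split into 15 dishes and each dish was measured on its own Affymetrix Mouse Genome 430A 2.0 array, giving 6 groups of 5 dishes: KO basal, KO with BDNF for 24 h, KO with BDNF for 48 h, WT basal, WT with BDNF for 24 h and WT with BDNF for 48 h. BDNF dishes received 100 ng/ml of brain-derived neurotrophic factor, a secreted ligand of TrkB, from day 3 onwards. Basal and 24 h dishes were lysed on day 4 and 48 h dishes on day 5, so 48 h of BDNF and 1 more day in culture cannot be told apart. Because each genotype is a single pool, genotype and pool cannot be told apart either, and the p-values measure the spread between dishes of a pool.

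Fibrillar collagens form the tensile fibrils of connective tissue, and type IV collagen and laminins form the sheet-like basement membrane. In the embryonic brain these proteins surround blood vessels and lie beneath the meninges, the connective-tissue covering of the brain, where the end-feet of radial glia attach. Procollagen chains are hydroxylated, folded and assembled in the endoplasmic reticulum, crosslinked outside the cell by lysyl oxidases and cut by MMPs and ADAMTS proteases, which TIMPs inhibit. XBP1, which the knockout lacks, is a transcription factor that cells switch on when unfolded proteins build up in that compartment.

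Levels are log2 of the array signal divided by the median of that array, so 0 is the array median, and differences are log2 units with the standard error (SE) of the fit. Levels of different genes are not compared, because probe sets differ in brightness. A gene rose, fell or differed where its Benjamini-Hochberg adjusted p, over 7436 tested genes, was under 0.05 in limma. Of the 86 genes, 42 passed the filter on dim genes and 44 did not. All 42 also lay above the filter's level of -0.40 when the 15 WT arrays were taken alone, so none passed through the KO dishes only. The dimmest gene just inside was Adamts10, with a mean level of -0.10 over all 30 arrays, and the brightest just outside was Lama1, at -0.43.

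Xbp1 itself had levels of 4.53 to 4.70 in basal KO dishes, against 4.37 to 4.47 in basal WT dishes, and its signal was higher in the KO by 0.22 ± 0.06 (adjusted p = 0.00498, limma). With BDNF the levels were 4.53 to 4.70 in KO and 4.47 to 4.68 in WT dishes at 24 h, and 4.65 to 4.87 in KO and 4.43 to 4.82 in WT dishes at 48 h, and neither difference passed the test. The deleted stretch of Xbp1 is not described in the labels, so this signal is no check of the genotype, and KO and WT stand for the dishes so labelled. Array medians before scaling were 96.7 to 138 in KO and 81.9 to 128 in WT dishes. The summed signal of the neuronal markers was 306 to 336 array medians in basal KO and 323 to 361 in basal WT dishes.

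The promoters of Col1a2 and of the neighbouring pair Col4a1 and Col4a2 are shown as examples, chosen after the results were seen. These genes were called between the genotypes at all 3 times and in WT dishes at 48 h, as were others, such as Col5a1 and Fbln5. All 3 windows hold both of the motifs marked below, which is not so for most windows of the tested genes. They were taken from RefSeq (GRCm38.p6) and run from 250 bases before to 50 bases after the annotated start, 5′ to 3′ on the strand of the gene. Capitals mark CCAAT and CCACG, the outer letters of the ER stress response element, on either strand (as ATTGG and CGTGG on the other). Col1a2 encodes the second chain of type I collagen and lies at chr6:4505368-4505667 on the plus strand. Col4a1 and Col4a2 encode both chains of the common type IV collagen, and their windows are chr8:11312777-11313076 on the minus strand and chr8:11312555-11312854 on the plus strand.
Col1a2: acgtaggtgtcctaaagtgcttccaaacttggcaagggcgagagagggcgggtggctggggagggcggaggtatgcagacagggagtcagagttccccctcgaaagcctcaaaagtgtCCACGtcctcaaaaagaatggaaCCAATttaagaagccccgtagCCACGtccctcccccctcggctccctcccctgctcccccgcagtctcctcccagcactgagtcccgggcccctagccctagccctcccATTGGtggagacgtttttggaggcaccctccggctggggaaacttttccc
Col4a1: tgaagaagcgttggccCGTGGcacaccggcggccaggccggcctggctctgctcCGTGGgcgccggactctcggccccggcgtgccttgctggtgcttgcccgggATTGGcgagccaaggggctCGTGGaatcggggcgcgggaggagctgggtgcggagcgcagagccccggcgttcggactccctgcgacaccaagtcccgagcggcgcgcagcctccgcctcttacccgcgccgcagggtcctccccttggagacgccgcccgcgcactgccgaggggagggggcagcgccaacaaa
Col4a2: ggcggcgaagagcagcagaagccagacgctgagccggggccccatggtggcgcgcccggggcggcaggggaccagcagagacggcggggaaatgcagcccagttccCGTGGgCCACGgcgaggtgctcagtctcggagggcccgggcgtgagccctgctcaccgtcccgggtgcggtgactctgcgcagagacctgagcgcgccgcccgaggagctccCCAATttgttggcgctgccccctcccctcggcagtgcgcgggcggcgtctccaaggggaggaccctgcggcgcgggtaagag

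The Col4a1 and Col4a2 windows overlap by 78 bases, and the annotated starts of these genes lie 21 bases apart on opposite strands. RefSeq windows were found for 24 of the 42 tested genes, 28 windows in all. CCAAT was in 12 of the 28 (42.9%), against 37.4% of all 32851 windows in the table, and CCACG was in 10 of 28 (35.7%), against 32.8%. The full ER stress response element, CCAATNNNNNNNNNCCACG, was in 0 of the 28 windows and in 0.119% of all windows. The unfolded protein response element TGACGTGG was in 1, that of Timp1, against 0.676% of all. TATAAA was in 2 windows, those of Adamts1 and Col3a1, against 13.6% of all. All motifs were searched on both strands, CCACG and TGACGTGG can overlap, and a match is only a description of these letters.

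Most of the matrix genes were higher in KO than in WT dishes, before BDNF and at both times after it. In basal dishes 34 of these 42 were higher in KO and 0 lower, where the shares over all genes tested were 9.2% higher and 18.7% lower. The median difference of the 42 genes was 0.75, against -0.09 over all tested genes. With 24 h of BDNF 33 were higher and 1 lower (8.43% and 17.8% of all genes), with a median of 0.71 against -0.10 over all genes. With 48 h of BDNF 33 were higher and 1 lower (9.68% and 14.4% of all genes), with a median of 0.90 against -0.07. These comparisons use separate dishes, and 30 genes were higher at all 3 times, a count not made over all tested genes. A further 7 were higher at 1 or 2 of these times, namely Adamts1, Adamts4, Adamts15, Col16a1, Col18a1, Lamc1 and Loxl3. Without the filter, 37 of all 86 genes were higher in basal KO dishes and 0 lower, where 6.45% of all 12394 genes were higher.

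**Figure D1:**
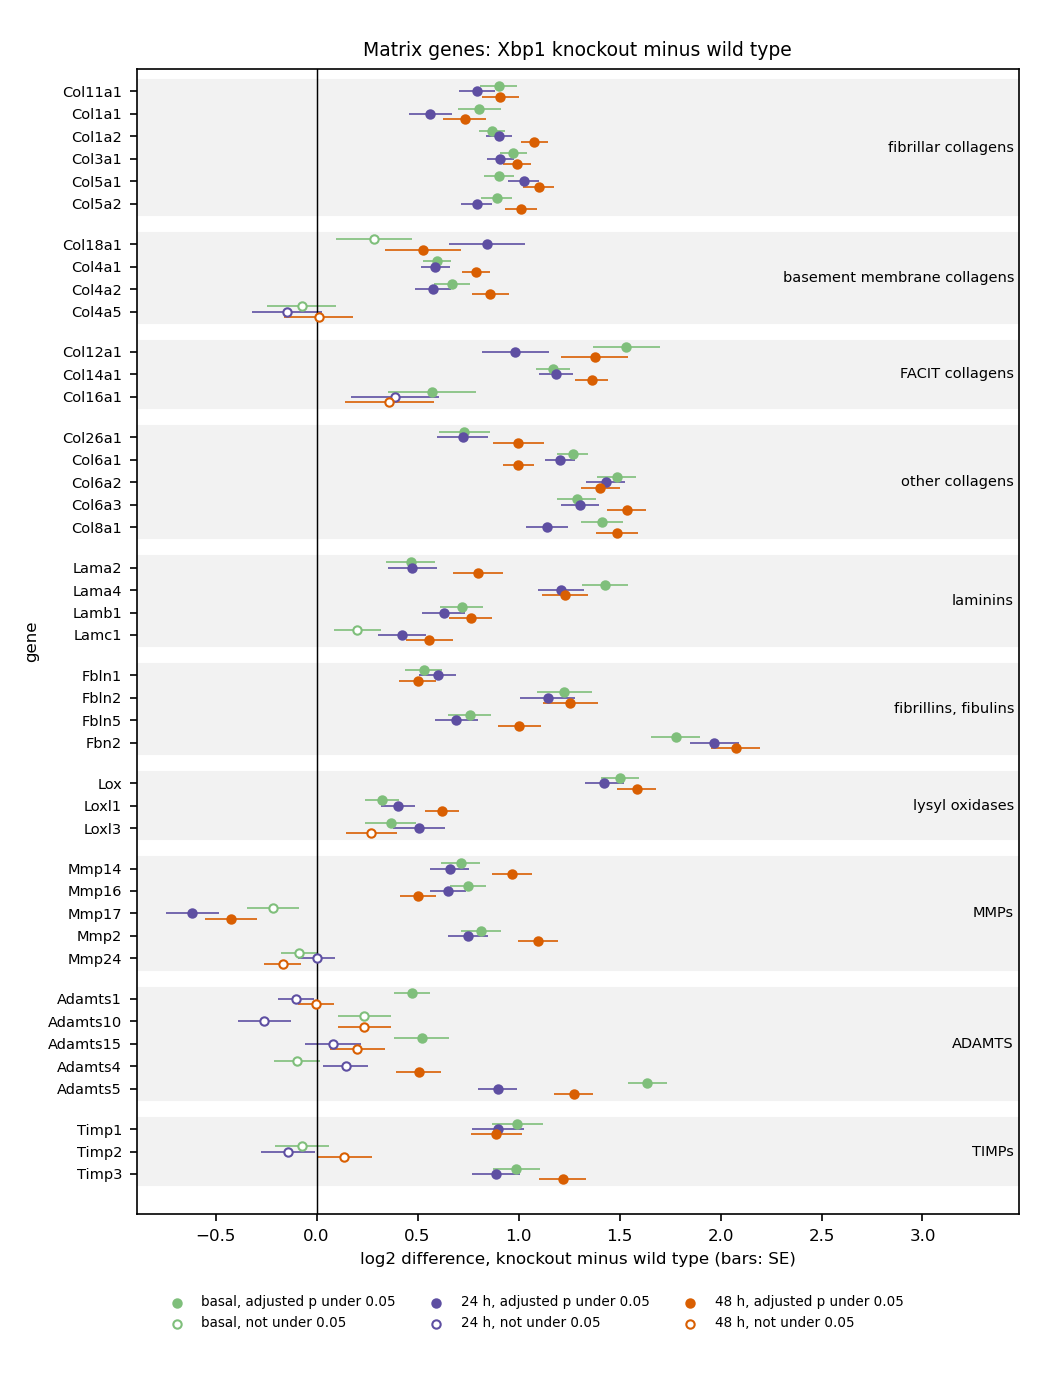
Difference between KO and WT in log2 units (horizontal axis) for the 42 tested matrix genes (vertical axis, grouped by role), in basal dishes and with 24 h or 48 h of BDNF; bars are standard errors, and filled points have an adjusted p under 0.05. Points of the collagens, Fbn2, Lox and Adamts5 lie to the right of 0 except for Col4a5, while Mmp17 lies to the left.

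All 6 tested fibrillar collagens were higher in KO dishes at all 3 times. Col1a2 had levels of 6.52, 6.43, 6.57, 6.54 and 6.69 in basal KO dishes, against 5.51, 5.66, 5.82, 5.71 and 5.70 in basal WT dishes. Col3a1, the type III collagen of soft connective tissue, had 5.85, 5.72, 5.81, 5.92 and 5.88 in basal KO and 4.64, 4.79, 4.89, 5.04 and 4.94 in basal WT dishes. The groups did not overlap for either gene. The differences were 0.87 ± 0.07 for Col1a2 (1.83-fold, adjusted p = 1.65e-12, limma) and 0.97 ± 0.07 for Col3a1 (1.96-fold, adjusted p = 2.96e-13). The other members were close to these in size: Col5a1 0.90, Col11a1 0.90, Col5a2 0.89 and Col1a1 0.80, where types V and XI are minor fibrillar collagens that start fibrils and set their width. Col3a1 and Col5a2 are neighbours on chromosome 1. The summed signal of the 9 measured fibrillar collagens was 235 to 267 array medians in basal KO dishes, against 123 to 148 in basal WT dishes.

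Of the basement membrane collagens, Col4a1 and Col4a2 were higher in KO dishes, by 0.60 ± 0.07 and 0.67 ± 0.09 in basal dishes, 0.59 and 0.58 at 24 h and 0.79 and 0.86 at 48 h. Col4a5, a chain of a different type IV network, did not pass the test at any time (-0.07, -0.15 and 0.01). Col18a1, a multiplexin collagen of basement membranes, differed by 0.29 in basal dishes without passing the test, and was higher by 0.84 at 24 h and 0.52 at 48 h. Its levels were 1.59, 1.72, 1.70, 1.67 and 1.42 in basal KO and 1.86, 0.75, 0.96, 1.53 and 1.57 in basal WT dishes, so the WT range enclosed the KO range.

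Type VI collagen, a beaded filament that links cells to the surrounding matrix, had all 3 tested chains higher in KO dishes. Col6a2 had levels of 2.86, 2.73, 2.81, 2.73 and 2.97 in basal KO and 1.69, 1.27, 1.14, 1.22 and 1.34 in basal WT dishes. Col6a1, its neighbour on chromosome 10, had 2.67, 2.55, 2.54, 2.64 and 2.56 in basal KO and 1.32, 1.39, 1.40, 1.42 and 1.08 in basal WT dishes. Col6a3 had 2.18, 2.21, 2.28, 2.25 and 2.31 in basal KO and 0.85, 0.73, 0.93, 1.11 and 1.16 in basal WT dishes. No group overlapped its counterpart for these chains. The differences were 1.49 ± 0.10 for Col6a2 (2.8-fold, adjusted p = 5.28e-14, limma), 1.27 ± 0.08 for Col6a1 and 1.29 ± 0.09 for Col6a3. Col8a1, a short-chain network collagen, was higher by 1.41 ± 0.10, and Col26a1 by 0.73 ± 0.13.

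The FACIT collagens, which sit on the surface of fibrils, were also higher in basal KO dishes. Col12a1 had levels of 1.48, 1.47, 1.46, 1.69 and 1.65 in KO and 0.03, 0.20, 0.15, -0.45 and 0.15 in WT dishes, a difference of 1.53 ± 0.17 (2.89-fold, adjusted p = 6.21e-09, limma). Col14a1 was at 2.39, 2.26, 2.41, 2.60 and 2.62 in KO and 1.30, 1.24, 1.47, 1.14 and 1.29 in WT dishes, a difference of 1.17 ± 0.08 (adjusted p = 3.32e-13). For both, every KO dish lay above every WT dish. Col16a1 was at 0.90, 1.21, 0.57, 1.08 and 0.96 in KO and 1.13, 0.15, -0.30, 0.28 and 0.60 in WT dishes, which overlapped, and its difference of 0.57 ± 0.22 was near the threshold (adjusted p = 0.0486) and was under it at neither later time (0.39 and 0.36).

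All 4 tested laminin chains were higher in KO dishes at 24 h and 48 h, and 3 of them in basal dishes. Lama4, the alpha chain of endothelial and mesenchymal basement membranes, had levels of 2.02, 1.59, 1.96, 1.80 and 2.05 in basal KO and 0.33, 0.41, 0.45, 0.53 and 0.56 in basal WT dishes, a difference of 1.43 ± 0.11 (adjusted p = 5.21e-12, limma). Lamb1, the common beta chain, was higher by 0.72 ± 0.11, and Lama2, the alpha chain of muscle, nerve and brain vessel laminin, by 0.47 ± 0.12 in basal and 0.80 ± 0.12 in 48 h dishes. Lamc1, the common gamma chain, differed by 0.20 in basal dishes, where it did not pass the test, and was higher by 0.42 at 24 h and 0.56 at 48 h. Another Lamc1 probe set was higher in basal KO dishes by 2.02 ± 0.31, so the size of the basal difference depends on the probe set.

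Among elastic-fibre genes Fbn2 differed most of all 42 genes in basal dishes. Fbn2 encodes fibrillin-2, a microfibril protein of embryonic tissue. It was at 3.59, 3.59, 3.78, 3.86 and 3.67 in basal KO and 1.62, 1.84, 1.99, 1.90 and 2.26 in basal WT dishes, a difference of 1.78 ± 0.12 (3.43-fold, adjusted p = 1.27e-13, limma). With 48 h of BDNF it was at 3.20, 3.23, 3.53, 3.54 and 3.42 in KO and 1.05, 1.06, 1.37, 1.60 and 1.45 in WT dishes, a difference of 2.08 ± 0.12 (4.21-fold). The lowest KO dish lay above the highest WT dish at each of these times. Fibulins, which join elastic fibres and basement membranes to their partners, were higher too: Fbln2 by 1.23 ± 0.14, Fbln5 by 0.76 ± 0.11 and Fbln1 by 0.53 ± 0.09 in basal dishes.

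Lox, the lysyl oxidase that crosslinks collagen and elastin, was at 4.80, 4.85, 5.03, 5.19 and 4.95 in basal KO and 3.07, 3.40, 3.71, 3.66 and 3.47 in basal WT dishes, which did not overlap. It was higher in KO dishes by 1.50 ± 0.10 (2.83-fold, adjusted p = 2.95e-14, limma), by 1.43 at 24 h and by 1.59 at 48 h. Its relatives differed less: Loxl1 was higher by 0.32 ± 0.08 and Loxl3 by 0.37 ± 0.13 in basal dishes, and basal KO and WT dishes overlapped for both. At 48 h Loxl1 was higher by 0.62, while Loxl3 differed by 0.27 and did not pass the test.

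**Figure D2:**
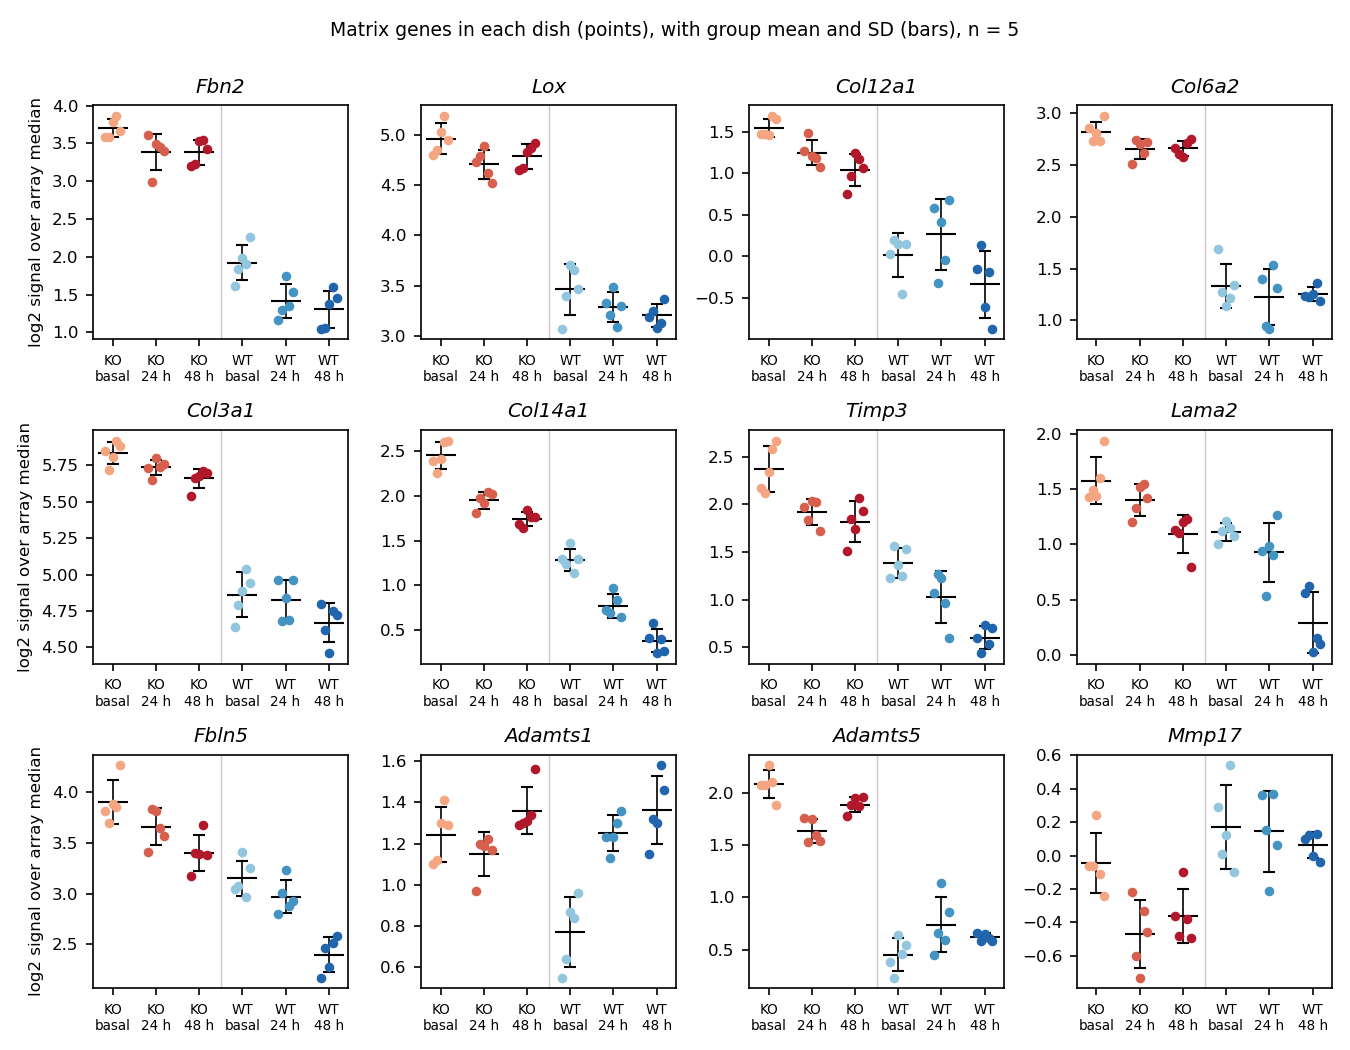
Level of 12 matrix genes in each dish (log2 of signal over the array median, vertical axis) in the 3 KO and 3 WT groups (horizontal axis); bars are the group mean and SD of 5 dishes. For Fbn2, Lox, Col12a1, Col6a2, Col3a1, Col14a1 and Adamts5 every basal KO dish lies above every basal WT dish, and KO and WT dishes of Adamts1 overlap once BDNF is present.

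Of the 5 tested MMPs, 3 were higher in KO dishes at all 3 times. Mmp2, gelatinase A, was at 4.03, 3.86, 3.80, 3.96 and 4.27 in basal KO and 3.11, 3.05, 3.42, 3.07 and 3.17 in basal WT dishes, a difference of 0.81 ± 0.10 (adjusted p = 6.73e-08, limma) with no overlap. Mmp14, the membrane-bound protease that activates pro-MMP2, was higher by 0.71 ± 0.10, and Mmp16, another membrane-bound MMP, by 0.75 ± 0.09. Mmp17, a GPI-anchored MMP, was the only one of the 42 genes lower in KO dishes. Its levels at 24 h were -0.22, -0.60, -0.73, -0.33 and -0.46 in KO and 0.36, 0.15, -0.21, 0.37 and 0.06 in WT dishes, a difference of -0.62 ± 0.13 (adjusted p = 0.000502) in which the lowest WT dish lay just above the highest KO dish. It differed by -0.42 ± 0.13 at 48 h, and the -0.22 of basal dishes did not pass the test. Mmp24, a membrane MMP of neurons, did not pass the test at any time, with differences of -0.09, 0.00 and -0.17 in basal, 24 h and 48 h dishes.

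ADAMTS genes, secreted proteases that act mostly on proteoglycans and procollagens, were mixed. Adamts5, an aggrecanase, was at 2.08, 2.08, 2.27, 2.11 and 1.89 in basal KO and 0.38, 0.23, 0.64, 0.46 and 0.54 in basal WT dishes, which did not overlap, a difference of 1.64 ± 0.10 (3.11-fold, adjusted p = 3.99e-15, limma). Adamts1, its neighbour on chromosome 16 and also a proteoglycan-cutting enzyme, was at 1.10, 1.12, 1.30, 1.41 and 1.29 in basal KO and 0.55, 0.64, 0.87, 0.84 and 0.96 in basal WT dishes, a difference of 0.47 ± 0.09. At 24 h and 48 h Adamts1 differed by -0.10 and 0.00 and did not pass the test. Adamts15 was higher in basal KO dishes (0.52) and differed by 0.08 and 0.20 at 24 h and 48 h without passing. Adamts4, another aggrecanase, was higher in KO dishes at 48 h (0.51) and differed by -0.10 and 0.14 in basal and 24 h dishes without passing. Adamts10 passed at no time.

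Of the TIMPs, Timp1 and Timp3 were higher in KO dishes and Timp2 did not pass the test. Timp1 was at 1.93, 1.45, 1.90, 2.00 and 1.89 in basal KO and 0.68, 0.72, 1.06, 0.74 and 1.0 in basal WT dishes, a difference of 0.99 ± 0.13 (adjusted p = 1.66e-07, limma). Timp3, which binds to the matrix itself, was at 2.17, 2.12, 2.34, 2.58 and 2.67 in basal KO and 1.23, 1.56, 1.36, 1.25 and 1.53 in basal WT dishes, a difference of 0.99 ± 0.12 (adjusted p = 4.23e-08). Neither gene overlapped between the genotypes. Timp2 differed by -0.07, -0.14 and 0.14 in basal, 24 h and 48 h dishes.

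The 44 genes below the filter had mean levels of -3.32 to -0.43, and 12 of them were at the floor of the scale on 15 or more of the 30 arrays. They include Mmp1a, Mmp1b, Mmp3, Mmp8, Mmp10, Mmp12 and Mmp13, neighbours on chromosome 9, and Col10a1, which was at the floor on all arrays. With the filter lifted, 3 of them were higher in KO dishes at all 3 times. Col2a1, the main collagen of cartilage, was at 0.09, -0.01, 0.30, 0.33 and 0.33 in basal KO and -1.23, -1.54, -3.32, -1.24 and -1.36 in basal WT dishes, with no overlap. Lama1, an early embryonic laminin chain, averaged -0.07 ± 0.21 in basal KO and -0.87 ± 0.36 in basal WT dishes (SD, n = 5 each). Lamb2, a beta chain of mature basement membranes, averaged 0.05 ± 0.42 in basal KO and -0.81 ± 0.27 in basal WT dishes. Of the genes above the filter that were higher in KO dishes, 16 in basal dishes had further probe sets; all 17 of these moved the same way and 16 passed the test.

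Genes whose products build, bind or sense the same matrix were counted from lists written from general knowledge, beside shares of 9.2% higher and 18.7% lower over all genes tested in basal dishes. In basal dishes 11 of 19 tested genes of collagen processing were higher in KO and 1 lower, with a median difference of 0.43. Pcolce, which enhances procollagen cleavage, was higher by 1.20 ± 0.07, and Serpinh1, the collagen chaperone HSP47, by 1.17 ± 0.12. Of basement membrane and elastic-fibre partners 13 of 17 were higher and 1 lower, with a median of 0.69. Efemp1 was higher by 1.68 ± 0.13, and Nid1, nidogen-1, which links laminin to type IV collagen, by 1.54 ± 0.08; Thbs2 was higher by 1.53 and Postn, periostin, lower by a difference of -0.60. Of matrix receptors 7 of 13 were higher and 3 lower, and the share lower was near that of all genes. Cd44, a hyaluronan receptor, was higher by 1.04 ± 0.15, Ddr2, a receptor for fibrillar collagen, by 0.90 ± 0.10 and Itgb1, the beta-1 integrin chain, by 0.87 ± 0.11.

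Markers of some other cell types were higher in KO dishes like the matrix genes, and those of others were not. All 9 tested of 15 measured markers of meningeal fibroblasts and mesenchyme were higher in KO dishes at all 3 times, with medians of 1.06, 0.83 and 1.25 in basal, 24 h and 48 h dishes. In basal dishes Fmod, fibromodulin, was higher by 2.23 ± 0.13, Foxd1 by 2.05, Lum, lumican, by 1.99 and Dcn, decorin, by 1.41. The summed signal of the 15 was 78.7 to 99.5 array medians in basal KO and 33.6 to 41.7 in basal WT dishes, 58.7 to 73.4 in KO and 26.6 to 32.8 in WT dishes at 24 h, and 61.3 to 74.7 in KO and 26.1 to 34.1 in WT dishes at 48 h. The part of this difference in the matrix results was not tested, and fewer cells of a type and less RNA per cell cannot be told apart in RNA of whole dishes.

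Of 5 tested of 10 measured pericyte and smooth muscle markers, 4 were higher in basal KO dishes, among them Pdgfrb (1.14) and Tagln (1.12), and Rgs5 was lower (-1.13). Their summed signal was 80.4 to 101 in basal KO and 60.9 to 65.0 in basal WT dishes. Endothelial markers were dim in both genotypes: 2 of 13 passed the filter, the sum was 5.07 to 6.07 in basal KO and 4.33 to 5.88 in basal WT dishes, and Tie1 was at the floor on all arrays, and Pecam1 on all arrays of basal KO dishes. Choroid plexus markers went the other way, with a summed signal of 7.08 to 46.7 in basal KO and 140 to 157 in basal WT dishes. Ttr differed by -3.56 ± 0.46 and Folr1 by -2.30 ± 0.15, while Otx2 of the same list was higher in KO by 0.74. Of 12 radial glia and progenitor markers 3 were higher and 5 lower in basal KO dishes (median -0.31). Astrocyte markers had 1 of 3 higher and 2 lower, neuronal markers 0 of 11 higher and 2 lower, and microglial markers 1 of 5 higher and 0 lower. None of 3 erythroid markers passed, and over all tested genes 9.2% were higher and 18.7% lower. The part of these markers in the matrix results was not tested.

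**Figure D3:**
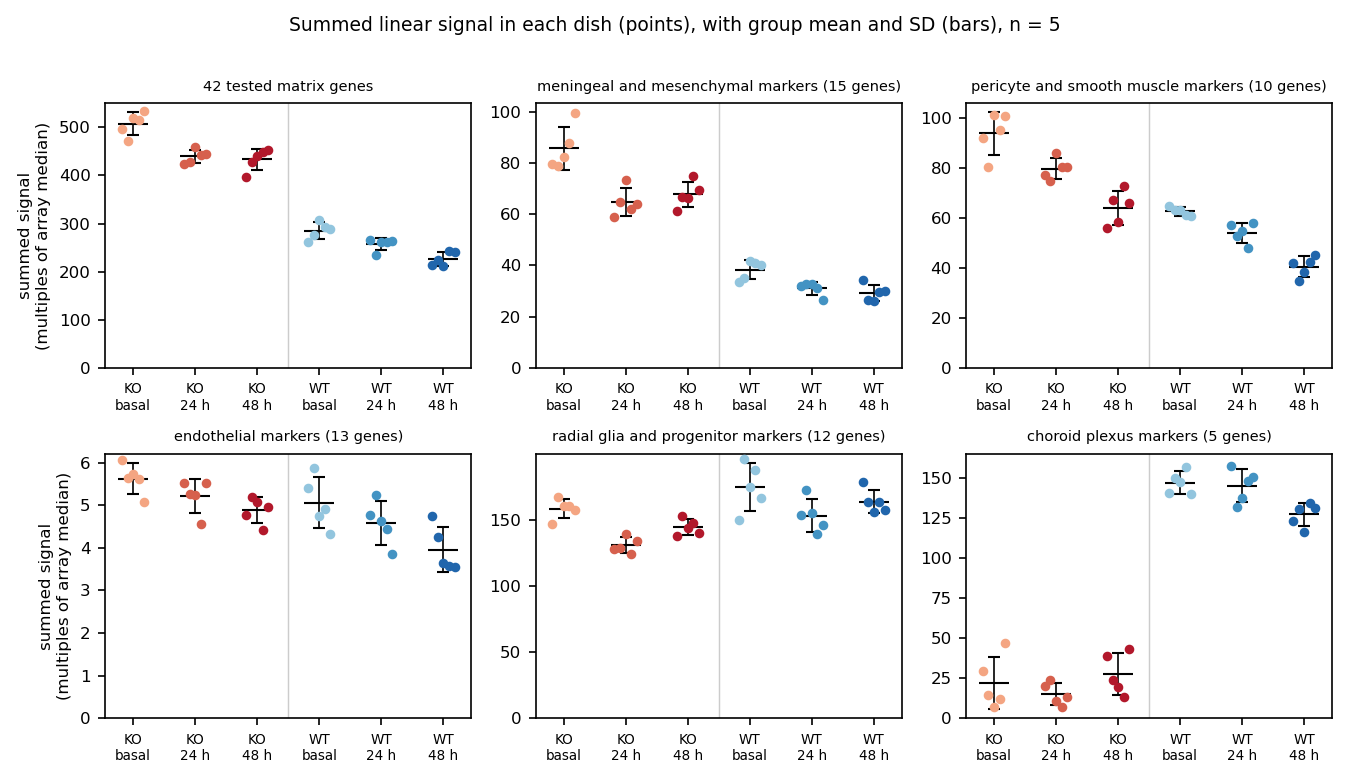
Summed linear signal, in multiples of the array median (vertical axes, from 0), of the 42 tested matrix genes and of 5 lists of cell-type markers in each dish of the 3 KO and 3 WT groups (horizontal axes); bars are the mean and SD of 5 dishes. Matrix genes and meningeal and mesenchymal markers are higher in all KO groups than in all WT groups, endothelial markers overlap in basal dishes, and choroid plexus markers are higher in WT dishes.

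Under BDNF, the matrix genes that passed the test were mostly lower than in basal dishes, in both genotypes and more of them at 48 h than at 24 h. At 24 h 0 of the 42 genes rose and 9 fell in KO dishes (5.96% and 5.55% of all tested genes), and 2 rose and 7 fell in WT dishes (8.04% and 6.4%). At 48 h 0 rose and 18 fell in KO dishes (19.4% and 9.47% of all genes), and 2 rose and 22 fell in WT dishes (20.5% and 15.7%). The median difference at 48 h was -0.18 in KO and -0.31 in WT dishes, against 0.04 and 0.02 over all genes. At an unadjusted p under 0.05, 18 genes passed at 24 h and 21 at 48 h in KO dishes, and 16 and 27 in WT dishes, in either direction. The share of all genes under that threshold was not counted, so nothing about the matrix genes is read from these numbers. Without the filter, 24 of all 86 genes fell in WT dishes at 48 h, where 10.8% of all genes did.

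The count of these falls depended on how arrays were scaled. With the signals as deposited, without division by the array median, the median of all tested genes at 48 h moved to 0.29 in KO and 0.34 in WT dishes. On that scale 4 matrix genes rose and 2 fell in KO dishes, and 8 rose and 4 fell in WT dishes. The median of the matrix genes minus that of all genes was -0.22 in KO and -0.33 in WT dishes on either scale. Division by the median shifts all genes of an array alike, so this match was fixed in advance and is no check. With quantile normalization, another scaling of the arrays, the same value was -0.25 in KO and -0.30 in WT dishes.

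**Figure D4:**
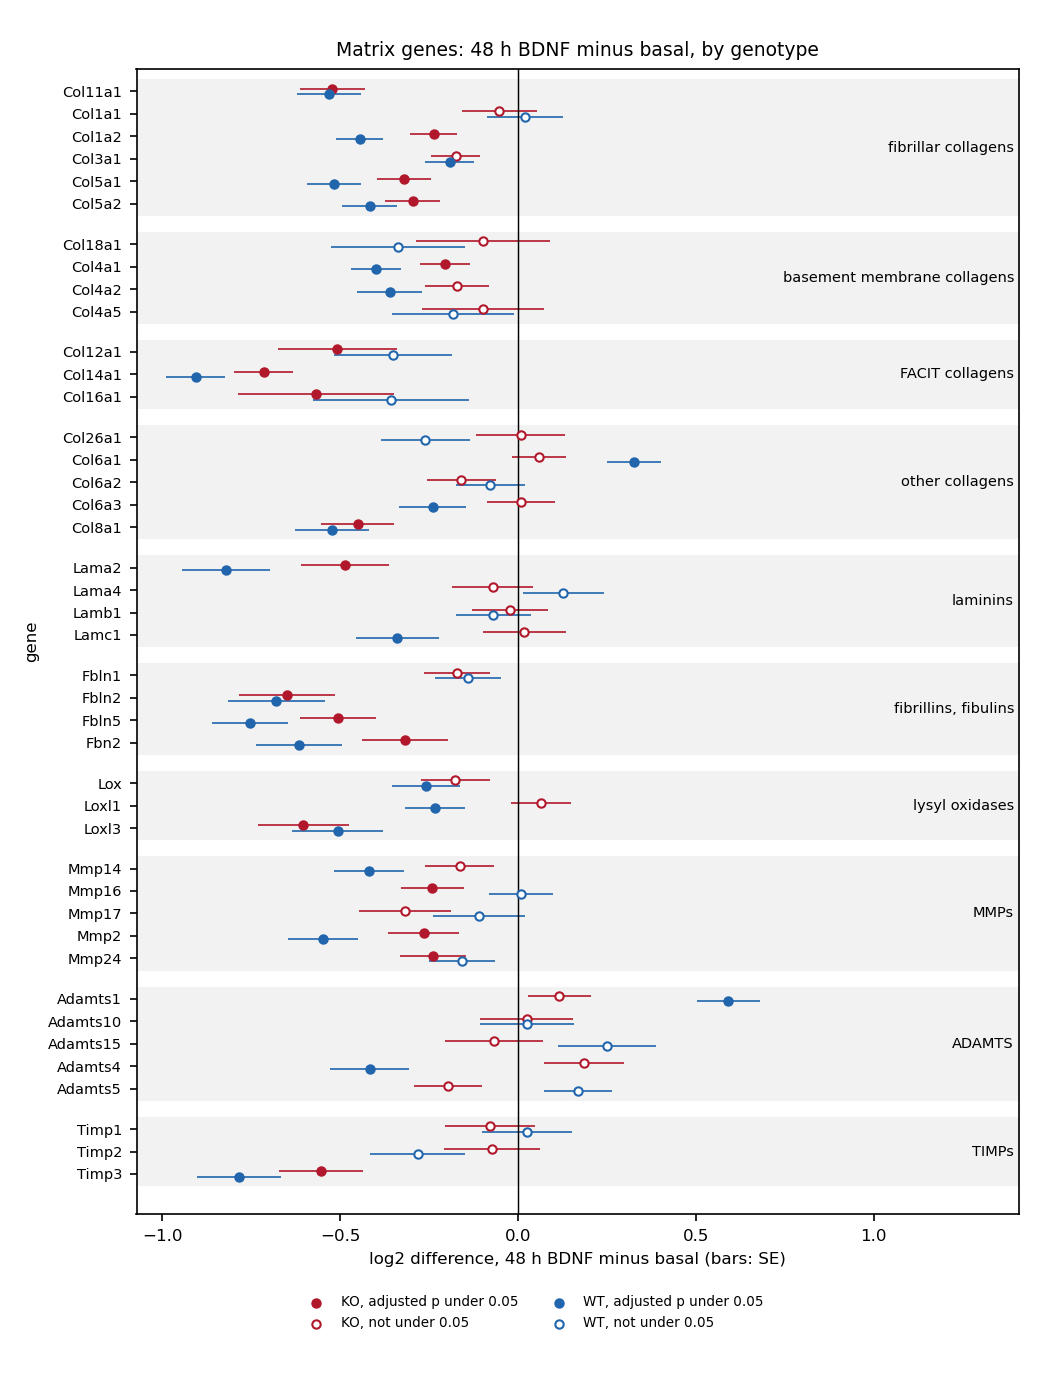
Difference between 48 h of BDNF and basal dishes in log2 units (horizontal axis) for the 42 tested matrix genes (vertical axis, grouped by role), in KO and in WT dishes; bars are standard errors, and filled points have an adjusted p under 0.05. Col14a1, Fbln2, Fbln5, Lama2 and Timp3 lie to the left of 0 in both genotypes, and Adamts1 and Col6a1 lie to the right in WT dishes.

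Genes of several roles fell in both genotypes, though the overlap of the 2 lists over all tested genes was not counted. At 24 h 5 genes fell in both, which is 55.6% of those that fell in KO and 71.4% of those that fell in WT dishes: Col8a1, Col11a1, Col14a1, Mmp14 and Timp3. At 48 h 14 genes fell in both, 77.8% of the KO and 63.6% of the WT list. These were the fibrillar collagens Col1a2, Col5a1, Col5a2 and Col11a1, together with Col4a1, Col8a1, Col14a1, Lama2, Fbn2, Fbln2, Fbln5, Loxl3, Mmp2 and Timp3. Among the KO calls, those of Mmp2 and Fbn2 were each lost in 12 of 23 alternatives, and that of Col4a1 in 8 of 23.

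Col14a1 fell at both times in both genotypes. KO dishes were at 2.39, 2.26, 2.41, 2.60 and 2.62 in basal, 1.81, 1.98, 1.92, 2.04 and 2.02 in 24 h and 1.69, 1.64, 1.84, 1.77 and 1.77 in 48 h dishes. WT dishes were at 1.30, 1.24, 1.47, 1.14 and 1.29 in basal, 0.72, 0.69, 0.97, 0.83 and 0.64 in 24 h and 0.41, 0.58, 0.24, 0.40 and 0.27 in 48 h dishes. No BDNF dish reached its basal group in either genotype. The changes were -0.50 ± 0.08 at 24 h and -0.71 ± 0.08 at 48 h in KO dishes (adjusted p = 6.99e-08 at 48 h, limma), and -0.52 ± 0.08 and -0.91 ± 0.08 in WT dishes (adjusted p = 3.17e-10 at 48 h).

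Timp3 was at 1.51, 1.85, 1.74, 2.07 and 1.93 with 48 h of BDNF in KO dishes, all of them below the basal KO values given above, a change of -0.55 ± 0.12 (adjusted p = 0.000625, limma). In WT dishes it was at 0.60, 0.44, 0.74, 0.54 and 0.70 at 48 h, below all basal WT dishes, a change of -0.78 ± 0.12 (adjusted p = 4.94e-06). At 24 h it changed by -0.46 in KO and -0.36 in WT dishes. The WT call at 24 h was lost in 11 of 23 alternatives, and the change turned positive (0.073) when all probe sets of the gene were averaged. Col11a1 changed by -0.48 and -0.52 in KO dishes at 24 h and 48 h, and by -0.38 and -0.53 in WT dishes. Col8a1 changed by -0.58 and -0.45 in KO and by -0.31 and -0.52 in WT dishes at the same times. Each of these Col8a1 calls was lost when all probe sets of the gene were averaged, and the WT call at 24 h was lost in 11 of 23 alternatives. Fbn2 fell in WT dishes at both times (-0.50 and -0.62), while in KO dishes it differed by -0.31 at 24 h, which did not pass the test, and fell at 48 h (-0.32), a call lost in 12 of 23 alternatives.

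At 48 h 3 of 4 tested fibrillins and fibulins fell in each genotype, and of 4 laminins Lama2 fell in KO and Lama2 and the brightest Lamc1 probe set in WT dishes. At 24 h the only calls in these families were Fbn2 in WT dishes, given above, and Lamb1 in KO dishes (-0.35), the second of which was lost in 11 of 23 alternatives. Fbln5 was at 3.82, 3.70, 3.89, 3.86 and 4.27 in basal, 3.41, 3.84, 3.82, 3.65 and 3.57 in 24 h and 3.17, 3.40, 3.39, 3.68 and 3.38 in 48 h KO dishes. In WT dishes it was at 3.05, 3.08, 3.41, 2.97 and 3.25 in basal, 2.80, 3.01, 3.23, 2.88 and 2.93 in 24 h and 2.17, 2.46, 2.28, 2.51 and 2.58 in 48 h dishes. The changes at 48 h were -0.51 ± 0.11 in KO (adjusted p = 0.000583, limma) and -0.75 ± 0.11 in WT dishes (adjusted p = 1.86e-06). Every 48 h WT dish of Fbln5 lay below every basal and 24 h WT dish. Fbln2 changed by -0.65 ± 0.14 in KO and -0.68 ± 0.14 in WT dishes, with levels at 48 h of 0.79 to 1.53 in KO and -0.60 to 0.10 in WT dishes. Lama2 was at 1.13, 1.10, 1.20, 1.23 and 0.80 in 48 h against 1.43, 1.49, 1.44, 1.60 and 1.94 in basal KO dishes, a change of -0.49 ± 0.12. In WT dishes it was at 0.56, 0.62, 0.03, 0.15 and 0.10 at 48 h against 1.0, 1.12, 1.21, 1.15 and 1.08 in basal dishes, a change of -0.82 ± 0.12 (adjusted p = 4.49e-06), and the groups did not overlap in either genotype. Loxl3 changed by -0.60 in KO and -0.51 in WT dishes. Col16a1 changed by -0.57 in KO dishes, a call lost in 14 of 22 alternatives. In WT dishes its change of -0.36 did not pass the test.

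Type I and type IV collagens changed less. Col1a2 fell by 0.24 ± 0.07 in KO and by 0.45 ± 0.07 in WT dishes at 48 h. Col4a1 changed by -0.20 in KO and -0.40 in WT dishes, and Col4a2, whose promoter overlaps that of Col4a1, by -0.17 in KO, which did not pass the test, and -0.36 in WT dishes. Col1a1 depended on the probe set: the brightest changed by -0.05 in KO and 0.02 in WT dishes and did not pass, while another fell, with changes of -0.44 ± 0.16 in KO and -0.82 ± 0.16 in WT dishes. The probe sets of Lamc1 went opposite ways in WT dishes at 48 h, the brightest changing by -0.34 and the other by 1.27 ± 0.31, so no direction is given for that gene. Among the genes that changed at 48 h, 2 of 10 further probe sets in KO dishes passed the test the same way and 9 had the same sign. In WT dishes 4 of 12 passed the same way, 10 had the same sign and 1, that of Lamc1, passed the opposite way.

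Few matrix genes rose with BDNF. In WT dishes Adamts1 was at 0.55, 0.64, 0.87, 0.84 and 0.96 in basal, 1.23, 1.13, 1.23, 1.30 and 1.36 in 24 h and 1.15, 1.32, 1.30, 1.58 and 1.46 in 48 h dishes. It rose by 0.48 ± 0.09 at 24 h (adjusted p = 0.000314, limma) and 0.59 ± 0.09 at 48 h (adjusted p = 5.21e-06), and no BDNF dish overlapped the basal WT dishes. In KO dishes it was at 0.97, 1.20, 1.19, 1.22 and 1.17 at 24 h and 1.29, 1.30, 1.31, 1.34 and 1.56 at 48 h, changes of -0.09 and 0.12 that did not pass. Col6a1 rose in WT dishes at 48 h by 0.33 ± 0.08, where its levels were 1.60, 1.64, 1.59, 1.72 and 1.70, above all basal WT dishes. Of its partners, Col6a2 (-0.08) did not pass. Col6a3 (-0.24) was lower, a call lost in 12 of 23 alternatives. Adamts5 rose in WT dishes at 24 h by 0.29 ± 0.10, a call lost in 10 of 22 alternatives.

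Between 24 h and 48 h of BDNF 1 matrix gene rose and 2 fell in KO dishes (7.49% and 2.35% of all tested genes), and 1 rose and 12 fell in WT dishes (8.32% and 5.58%). With the signals as deposited the split turned round, with 8 rising and 0 falling in KO and 10 rising and 1 falling in WT dishes, while the median of all genes moved to 0.23 in KO and 0.33 in WT dishes. In KO dishes Lamb1 rose by 0.32, and Loxl3 (-0.46) and Col5a1 (-0.25) fell, but none of these calls held in every alternative, and that of Lamb1 was lost in 16 of 23. In WT dishes Col6a1 rose by 0.30. The falls there included Lama2 (-0.64), Col12a1 (-0.60), Fbln5 (-0.57), Fbln2 (-0.48) and Timp3 (-0.43).

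Whether the response to BDNF differed between the genotypes was tested directly. At 24 h 1 of the 42 genes passed, Adamts5, where 0.0941% of all tested genes did. Adamts5 was at 1.76, 1.53, 1.75, 1.60 and 1.54 with BDNF in KO dishes, against 2.08, 2.08, 2.27, 2.11 and 1.89 in basal KO dishes, a change of -0.45 ± 0.10 (adjusted p = 0.00194, limma). In WT dishes it was at 0.45, 0.66, 1.14, 0.59 and 0.86 with BDNF against 0.38, 0.23, 0.64, 0.46 and 0.54 in basal dishes. All KO dishes with BDNF lay below the basal KO dishes, while the WT groups overlapped. The difference between the responses was -0.74 ± 0.14 (adjusted p = 0.0126, limma), and it did not pass when only the arrays compared were fitted or with the signals as deposited. Another Adamts5 probe set differed in the same direction but did not pass the test.

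At 48 h 0 of the 42 genes passed in limma, where 0.134% of all genes did. An unadjusted p under 0.05 was found for 7 of them, and the share of all genes under that threshold was not counted. The response of Adamts1 differed by -0.57 ± 0.13 at 24 h (adjusted p = 0.0636) and -0.47 ± 0.13 at 48 h (adjusted p = 0.185). For Adamts4 and Adamts15 the differences in response at 48 h were 0.60 and -0.32, and neither passed. The 22 falls in WT and 18 in KO dishes at 48 h are therefore not shown to differ in size between the genotypes.

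Of the partner lists, those of collagen processing and of basement membrane and elastic-fibre partners held more falls than rises at 48 h, where 19.4% of all tested genes rose and 9.47% fell in KO and 20.5% rose and 15.7% fell in WT dishes. Of collagen processing genes 0 of 19 rose and 10 fell in KO dishes, and 1 rose and 13 fell in WT dishes. Pcolce changed by -0.55 ± 0.07 in KO and -0.75 ± 0.07 in WT dishes, and Plod2, a collagen lysyl hydroxylase, by -0.48 and -0.44. Of basement membrane and elastic-fibre partners 0 of 17 rose and 11 fell in KO dishes, and 1 rose and 11 fell in WT dishes. Emilin1, an elastic-fibre glycoprotein, changed by -0.57 in KO and -0.90 in WT dishes, and Eln, elastin, by -0.92 in WT dishes. Of matrix receptors 1 of 13 rose and 2 fell in KO dishes, and 3 rose and 5 fell in WT dishes, with medians of -0.019 and -0.22. The shares of receptors that fell in KO and rose in WT dishes were near those of all genes. Sdc1, syndecan-1, changed by -0.61 and -0.60, and Itga6, the alpha-6 chain of laminin-binding integrins, rose by 0.37 in KO and 0.41 in WT dishes.

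Cell-type markers were also counted at 48 h. Of all tested genes, 19.4% rose and 9.47% fell in KO dishes, and 20.5% rose and 15.7% fell in WT dishes. Of 9 tested meningeal and mesenchymal markers, 3 fell in KO dishes, and 4 fell and 1 rose in WT dishes. Ogn, osteoglycin, changed by -0.75 ± 0.08 in KO and -0.69 ± 0.08 in WT dishes, and Fmod by -0.67 and -0.51, while Lum rose in WT dishes by 0.42. Of 5 tested pericyte and smooth muscle markers, 2 fell and 0 rose in each genotype (medians -0.28 in KO and -0.27 in WT dishes). Among them Acta2, smooth muscle actin, changed by -0.63 in KO and -0.71 in WT dishes. Radial glia and progenitor markers had 3 of 12 lower in KO and 6 of 12 lower in WT dishes at 48 h (medians -0.16 and -0.38). At 24 h 5 and 4 of 12 were lower, where 5.55% of all tested genes fell in KO and 6.4% in WT dishes. None was higher at either time. All 3 tested erythroid markers, the embryonic globins Hba-x, Hbb-bh1 and Hbb-y, fell in both genotypes at 48 h (medians -1.0 in KO and -0.99 in WT dishes), and of 3 choroid plexus markers 0 fell in KO and 2 in WT dishes. Of 11 tested neuronal markers 3 rose and 1 fell in KO dishes, and 5 rose and 2 fell in WT dishes (medians 0.013 and 0.094), with the largest change in Nefm (1.45 in KO and 1.41 in WT dishes). Of the other lists, astrocyte markers had 1 of 3 higher and 1 lower in KO and 1 higher and 2 lower in WT dishes, microglial markers 1 of 5 higher and 0 lower in KO and 1 higher and 2 lower in WT dishes, and endothelial markers 0 of 2 lower in KO and 1 in WT dishes. The shares of neuronal markers that fell and of microglial markers that rose were near those of all genes. The part of these markers in the falls of matrix genes was not tested. The ratio of the 3′ to the 5′ Gapdh probe set, a sign of RNA quality, was 2.17 to 2.68 in KO and 2.40 to 2.62 in WT dishes at 48 h, against 2.57 to 2.84 in basal KO and 2.72 to 2.94 in basal WT dishes. Its part in the 48 h results was not tested beyond a fit with the ratio as a covariate. In that fit 14 matrix genes fell and 0 rose in KO dishes, and 20 fell and 2 rose in WT dishes.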

How the data were processed

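RNA of 30 dishes was hybridised to 30 arrays, 5 in each of 6 groups. The deposited values are array intensities on a linear scale, computed by the authors with MAS5 per the submitters' processing notes; its version is not given in the sources used here. Per the series design the data were divided by the array median and filtered on present calls, but neither shows in the deposited intensity values, whose array medians were 81.9 to 138 over 22690 probe sets. Each array was therefore divided by its median here, values under 0.1 of the median were set to that floor, and log2 was taken. Probe sets with 1 gene symbol in the platform annotation (20393) were used, 691 with several and 1606 with none were not, and a gene was read from its brightest probe set. The upper 60% of genes by mean level were tested.

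A model with 1 mean per group was fitted over the 30 arrays by limma 3.58.1 (R 4.3.3; moderated variances, trend on intensity) for 11 comparisons. The two-sided p-values were adjusted by Benjamini-Hochberg within each comparison over all 7436 tested genes. Arrays give no counts, so their number, 5 per group, limits the precision. The matrix genes and all gene lists were chosen with earlier results of these data known, and lists are described by counts only.

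Values in every dish were planned for the 4 largest rises and 4 largest falls among called matrix genes in each comparison with basal or between genotypes and for genes called in a difference in response, which named 18 genes. Col1a2, Col3a1, Col18a1, Lama4, Mmp2, Timp1 and Col2a1 were added after their values were seen, as were Lama1 and Lamb2. Timp2, Col4a5, Adamts10, Tie1, Pecam1 and Postn were also named after their values were seen, and the promoters shown were chosen likewise. Of the other lists up to 4 called genes with the largest change were eligible per comparison. Alternatives covered scaling (quantile, 75th percentile, none), a pseudocount, the filter, the choice of probe set, fewer arrays, the replicate number as a block, no trend, the Gapdh ratio, a term for some 48 h dishes, a stricter threshold and leaving out each array. The fitting was tested on simulated data. Replicate numbers are shared between groups, but no source says that they pair dishes.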

Additional observations from a re-analysis of the deposited data

Results flagged for a closer look

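In 8 of the 108 groups of 5 dishes of the 18 genes planned for dish values, a single dish stood apart from the other 4 by Dixon's test; chance flags about 1 group in 20. In KO dishes, Adamts1 was at 0.97 in replicate 1 at 24 h, with the others at 1.17 to 1.22, and at 1.56 in replicate 5 at 48 h, with the others at 1.29 to 1.34. Fbln2 was at 1.30 in KO replicate 1 at 24 h, with the others at 1.55 to 1.64. In WT dishes, Col11a1 was at 2.81 in replicate 1 at 48 h (others 3.04 to 3.09) and Loxl3 at -0.68 in replicate 3 at 24 h (others -0.27 to -0.14). Among basal WT dishes, replicate 4 was low for both Col12a1, at -0.45 (others 0.03 to 0.20), and Fbln2, at 0.11 (others 0.59 to 0.76), and replicate 5 was low for Col6a1, at 1.08 (others 1.32 to 1.42). The response of Adamts5 to 24 h of BDNF differed between the genotypes by -0.74 in the test of the difference itself, with a change of -0.45 in KO and 0.29 in WT dishes.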

How the results depend on the processing

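Of the genes that differed between KO and WT, 32 of 34 in basal, 34 of 34 in 24 h and 32 of 34 in 48 h dishes did so in every alternative run that tested them; the exceptions were Col16a1 and Loxl3 in basal dishes and Col18a1 and Mmp17 in 48 h dishes. BDNF calls depended more on the processing: the calls present in every alternative were 1 of 9 in KO and 2 of 9 in WT dishes at 24 h, and 2 of 18 and 6 of 24 at 48 h, and 0 of 3 in KO and 1 of 13 (Lama2) in WT dishes between 48 h and 24 h. Those against basal were Col14a1 in all 4 comparisons, Fbln2 in KO at 48 h, Adamts1 in WT at both times, and Col6a1, Fbln5, Lama2 and Timp3 in WT at 48 h. With the signals as deposited 2 genes were called in KO at 24 h, 6 in KO at 48 h, 2 in WT at 24 h, 12 in WT at 48 h, 8 between 48 h and 24 h in KO (all rising), and 0 in the difference in response at 24 h. On that scale changes turned positive for Col1a2 (0.011), Col4a1 (0.043), Mmp16 (0.0070) and Mmp24 (0.0078) in KO at 48 h, for Col3a1 (0.12), Col6a3 (0.073), Lox (0.053) and Loxl1 (0.080) in WT at 48 h, and for Col1a2 (0.087), Col4a1 (0.081) and Col5a2 (0.041) between 48 h and 24 h in WT; the all-gene median moved with them, as given above. Averaging all probe sets of each gene, the changes of Timp3 in WT at 24 h (0.073) and of Lamc1 in WT at 48 h (0.47) turned positive, and 1 gene was called between 48 h and 24 h in KO. With quantile normalization 15 genes were called in KO and 14 in WT at 24 h, 5 between 48 h and 24 h in KO, and 2 and 1 in the differences in response at 24 h and 48 h; with the 75th percentile 15, 5 and 2 were called in KO at 24 h, between 48 h and 24 h in KO and in the 24 h difference in response. At an adjusted p under 0.01 the counts were 4 in KO and 4 in WT at 24 h, 11 in KO at 48 h, 0 in KO and 5 in WT between 48 h and 24 h, and 0 in the 24 h difference in response. With only the arrays compared, 7 genes were called between 48 h and 24 h in WT and 0 in the 24 h difference in response; with a Gapdh ratio term 1 and 7 were called between 48 h and 24 h in KO and WT. In the 24 h difference in response 0 were called among the upper 40% of genes, and 2, Adamts5 and Adamts1, with no trend or with a term for 48 h replicates 3 to 5. The scaling also moved the split of all genes between KO and WT in basal dishes, from 684 higher and 1389 lower to 861 and 989 with quantile normalization and 618 and 224 as deposited. The cause of these shifts was not tested.

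Leaving out each array in turn gave counts of 6 to 10 in KO and 5 to 9 in WT at 24 h (5 without WT 24 h replicate 5), 13 to 16 in KO and 19 to 25 in WT at 48 h, 0 to 2 in KO and 7 to 14 in WT between 48 h and 24 h, and 32 to 34, 34 to 34 and 33 to 34 between KO and WT in basal, 24 h and 48 h dishes. The count between 48 h and 24 h was 0 without KO 24 h replicate 1, 1 without KO 24 h replicate 4 or 5 or KO 48 h replicate 1, and in WT 7 without WT 48 h replicate 3. In the differences in response it was 1 to 2 at 24 h, with 2 without WT basal replicate 4 or 5, and 0 to 0 at 48 h. Of same-numbered dishes of different groups 23 of 75 pairs deviated together with a correlation above 0.1 (median 0.03, from -0.17 to 0.28). Of differently numbered pairs 50 of 300 did (median -0.014, from -0.42 to 0.27), a smaller share. The main fit left the numbers out because no source says that they pair dishes, and a shared effect of the number was not tested further. With the replicate number as a block, 5 genes were called between 48 h and 24 h in KO and 2 and 1 in the differences in response at 24 h and 48 h; the block moved no other count by over 1.5 times. Dim signal limits the 44 genes below the filter, for which a missed call says little.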
